A study of Homo sapiens with 2 samples.

Results

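The RUNX factor genes and CBFB are 4 genes, RUNX1, RUNX2, RUNX3 and CBFB, and 3 of the 6373 peaks in the deposited list named one of them as the nearest gene. The members were chosen by gene symbol, with the folds of these same peaks already known, so their folds and peak counts are a description and carry no test. RUNX1 had 2 peaks, RUNX3 had 1, and neither RUNX2 nor CBFB had any. The peaks come from 1 Flag chromatin immunoprecipitation (ChIP) library, set by the authors against 1 input library of chromatin that was not precipitated. Both libraries came from cells of PLC/PRF/5, a human liver cancer line long kept in culture, carrying a lentivirus that overexpresses ZFP64, a zinc finger protein. Flag ChIP of untagged control cells, replicates and any measurement of expression were not used here. The series title links protein kinase C alpha, ZFP64 and the macrophage growth factor CSF1, and the question asked of these genes is where, among their alternative promoters, the Flag ChIP was enriched.

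RUNX1, RUNX2 and RUNX3 encode transcription factors that share the Runt domain, which binds DNA at a short site read as ACCACA on one strand and TGTGGT on the other. CBFB encodes the partner subunit that does not touch DNA itself and strengthens binding of each RUNX protein. RUNX1 is best known for blood stem cell formation and leukaemia, RUNX2 for bone and cartilage, and RUNX3 for T cells, sensory neurons and as a gene silenced in several carcinomas. Each RUNX gene is transcribed from a distal promoter, P1, and a proximal promoter, P2, which lies inside the gene and usually within a CpG island. The promoters give proteins with different first residues and transcripts with different leaders.

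The RefSeq promoter windows of these genes are shown first because the presence or absence of a peak divided along them. Each window runs from 250 bp before an annotated start to 50 bp from it onward, 300 bp in all, read 5′ to 3′ on the strand of the gene in GRCh38.p14. Of the 4 genes, 3 were matched in the RefSeq table, with 5 windows: RUNX1 P2, P1 and P2 of RUNX3, and P1 and P2 of RUNX2. CBFB and RUNX1 P1 are named only. Capitals mark the RUNX hexamer (ACCACA or TGTGGT) and the CCAAT box (CCAAT or ATTGG), searched on both strands. The first pair are the windows that lay wholly inside a peak.
RUNX1 P2, chr21:34888650-34888949, minus strand: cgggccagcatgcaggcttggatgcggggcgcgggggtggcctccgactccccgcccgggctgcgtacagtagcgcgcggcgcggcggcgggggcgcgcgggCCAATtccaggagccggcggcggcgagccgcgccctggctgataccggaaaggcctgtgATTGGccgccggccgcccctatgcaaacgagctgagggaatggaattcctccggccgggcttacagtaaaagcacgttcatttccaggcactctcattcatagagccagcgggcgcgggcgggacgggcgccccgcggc
RUNX3 P2, chr1:24930227-24930526, minus strand: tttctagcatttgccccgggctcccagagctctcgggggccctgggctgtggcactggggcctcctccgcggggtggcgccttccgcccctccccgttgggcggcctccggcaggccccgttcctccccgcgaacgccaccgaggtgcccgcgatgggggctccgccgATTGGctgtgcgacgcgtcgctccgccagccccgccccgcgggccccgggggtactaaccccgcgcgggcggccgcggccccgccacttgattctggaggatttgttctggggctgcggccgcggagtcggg
The next 3 had no peak.
RUNX3 P1, chr1:24964961-24965260, minus strand: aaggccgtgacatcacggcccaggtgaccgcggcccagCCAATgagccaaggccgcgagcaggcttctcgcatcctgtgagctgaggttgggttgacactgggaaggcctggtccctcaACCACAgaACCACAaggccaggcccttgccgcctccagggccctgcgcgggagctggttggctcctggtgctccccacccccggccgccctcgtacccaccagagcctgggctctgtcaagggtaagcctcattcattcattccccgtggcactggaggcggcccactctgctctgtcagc
RUNX2 P1, chr6:45328080-45328379, plus strand: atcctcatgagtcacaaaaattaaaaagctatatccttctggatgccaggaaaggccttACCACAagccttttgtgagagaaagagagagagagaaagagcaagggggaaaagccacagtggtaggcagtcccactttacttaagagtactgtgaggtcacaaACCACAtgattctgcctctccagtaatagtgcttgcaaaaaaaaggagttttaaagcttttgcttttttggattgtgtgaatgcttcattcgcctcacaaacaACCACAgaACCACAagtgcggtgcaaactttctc
RUNX2 P2, chr6:45422025-45422324, plus strand: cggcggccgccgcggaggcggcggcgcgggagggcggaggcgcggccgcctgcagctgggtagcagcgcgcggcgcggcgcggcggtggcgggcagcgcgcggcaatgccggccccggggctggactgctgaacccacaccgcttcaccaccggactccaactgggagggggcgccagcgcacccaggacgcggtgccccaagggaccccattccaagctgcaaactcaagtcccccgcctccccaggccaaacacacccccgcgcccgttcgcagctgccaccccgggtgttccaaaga

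At RUNX1 the Flag ChIP was enriched over P2 and again a short way into the gene. The higher peak spanned chromosome 21 from 34888532 to 34890323 (hg38), 1792 bp, with a fold of 41.7 (q-value 2.29e-151). The fold sets ChIP signal over background at the peak's summit, and fold, p-value and q-value of each peak are the authors' own, comparing these 2 libraries. Solved together for fragments, the fold and p-value gave 109 ChIP fragments at the summit (exact Poisson 95% interval 89.5 to 131) where 1.64 were expected as background, giving a ratio of 66.4 (54.6 to 80.2). These intervals cover counting error only, take the background as fixed, and do not allow for the summit being chosen as the highest point. The peak reached from 1624 bp upstream of the RefSeq P2 start to 167 bp downstream of it, and so covered the whole RUNX1 P2 window printed above. Its summit, at 34889182 to within 1 bp, lay 483 bp upstream of that start and outside the window. The deposited annotation placed the peak over the start of transcript uc002yuh.3, which is 9 bp downstream of the RefSeq start.

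The lower RUNX1 peak ran from 34886518 to 34887191 on chromosome 21, 674 bp, and had a fold of 9.85 (q-value 7.08e-19). Its summit held 25 fragments (16.2 to 36.9) against the same expected 1.64, which gives a ratio of 15.2 (9.86 to 22.5). It began 1508 bp downstream of P2, after a gap of 1340 bp without a called peak. The deposited annotation gave it a start of its own, that of transcript uc061zwf.1, which lies 1516 bp downstream of RefSeq P2 and just inside the upstream edge of the peak. From that start its summit was 409 bp downstream, and it was 2408 bp from the summit of the higher peak. The higher RUNX1 summit therefore held 4.36 times the fragments of the lower (95% interval 2.80 to 7.03 from an exact binomial interval for their division, counting error only). Both are classed as promoter peaks, and both lie near P2, far from P1.

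RUNX1 P1 had no peak. The outer end of the RefSeq gene, at 35049302, lies 160603 bp upstream of P2, and the nearest peak edge to it was that of the P2 peak itself, 158979 bp away. The nearest other annotated start to either RUNX1 peak was that of RUNX1-AS1, a long noncoding RNA gene, 52219 bp from the higher peak and 50205 bp from the lower. Beyond the gene the nearest peaks were assigned to RCAN1, 243289 bp from one end, and CBR3-AS1, 1088208 bp from the other. No peak was listed in the rest of the 261502 bp gene.

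At RUNX3 the enrichment also lay at P2. The single assigned peak spanned chromosome 1 from 24928987 to 24930600, 1614 bp, at a fold of 20.9 (q-value 1.03e-64). Its summit held 61 fragments (46.7 to 78.4), where 1.97 were expected, for a ratio of 31.0 (23.7 to 39.8). The peak reached from 324 bp upstream of RefSeq P2 to 1289 bp downstream, with its summit 109 bp downstream of P2. The RUNX1 P2 peak was spread the other way, mostly upstream of its start. The RUNX1 P2 summit held 1.79 times as many fragments as that of RUNX3 (1.29 to 2.49, by the same exact binomial interval). The deposited annotation assigned the RUNX3 peak to transcript uc001bjq.4, which starts 399 bp downstream of RefSeq P2.

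The RUNX3 peak also covered the start of RUNX3-AS1, a long noncoding RNA gene on the opposite strand that begins 181 bp upstream of RUNX3 P2. The deposited list names only the nearest gene, so the peak cannot be divided between RUNX3 and RUNX3-AS1. RUNX3 P1, 34734 bp upstream of P2, had no peak, and the nearest peak edge was 34410 bp away, again that of the P2 peak. Outside the gene the nearest peaks were 56133 bp and 153509 bp away, assigned to the microRNA gene MIR4425 and to CLIC4, a chloride intracellular channel gene.

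**Figure D1:**
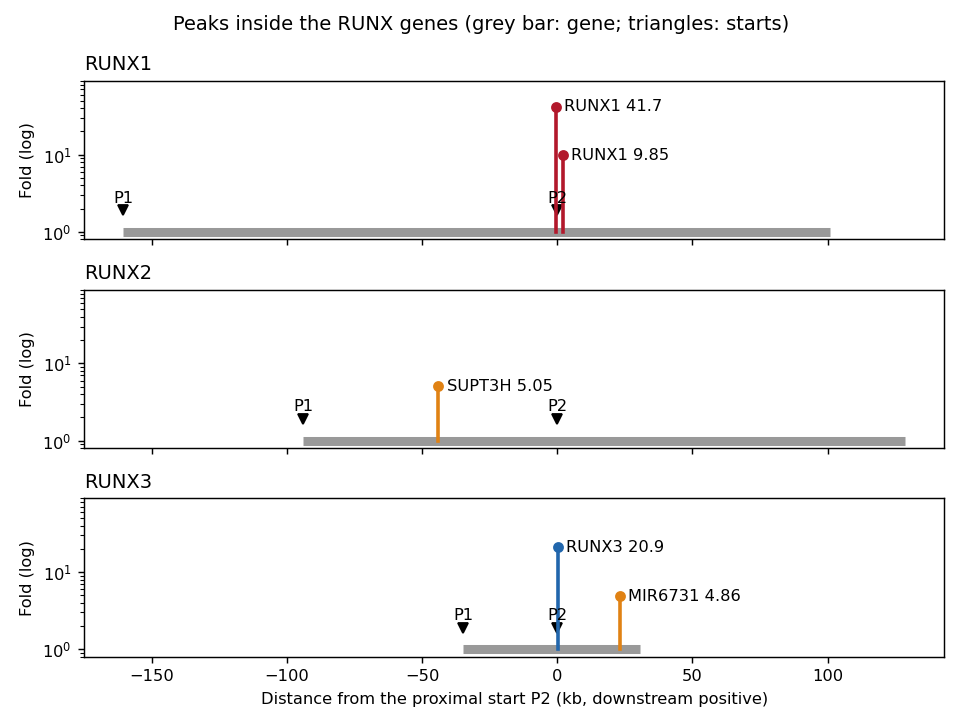
Peaks inside RUNX1, RUNX2 and RUNX3, placed by distance in kb from the proximal start P2 (downstream positive), with the deposited fold on a log axis; grey bars are RefSeq genes, triangles are starts, and orange marks peaks assigned to another gene. The RUNX1 peaks (41.7 and 9.85) and the RUNX3 peak (20.9) stand at or just beyond P2, and both P1 starts and the RUNX2 starts have none.

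**Figure D2:**
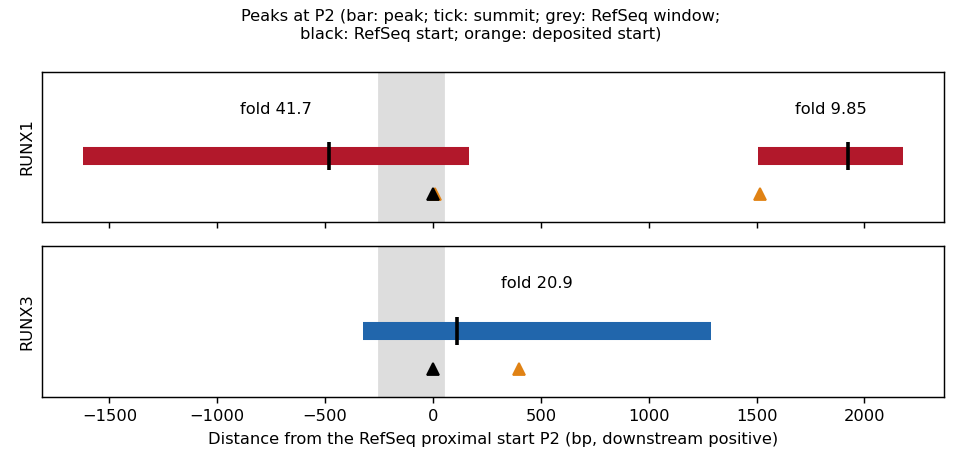
Peaks around P2 of RUNX1 and RUNX3 in bp from the RefSeq start; bars are peaks, black ticks summits, the grey band the 300 bp window, black triangles RefSeq starts and orange triangles the starts in the deposited annotation. The higher RUNX1 peak has its summit 483 bp upstream of P2 and the RUNX3 peak 109 bp downstream.

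A pair of further peaks lay inside the gene bodies without being assigned to a member, and were noticed after the assigned peaks had been seen. In RUNX3 a region of chromosome 1 between 24906939 and 24907378 (fold 4.86, q-value 6.68e-05) was classed as exon 5 of 6 of a RUNX3 transcript but assigned to the microRNA gene MIR6731. It held 11 fragments (5.49 to 19.7) where 1.47 were expected, and its summit was 23284 bp downstream of P2. In RUNX2 a region of chromosome 6 between 45378057 and 45378403 (fold 5.05, q-value 4.46e-06) was assigned to SUPT3H, whose product is a subunit of a transcriptional coactivator complex. SUPT3H begins inside RUNX2 on the other strand, and the peak lay 104 bp upstream of the start that the deposited annotation used. It held 14 fragments (7.65 to 23.5), with 1.97 expected. It stood between the RUNX2 promoters, 49727 bp from P1 and 43872 bp from P2. Both peaks had a fold lower than the median of all promoter peaks, 6.98.

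RUNX2 and CBFB had no assigned peak. RUNX2 P1 and P2 lie 93945 bp apart on chromosome 6, and apart from the SUPT3H peak the nearest peaks were 977704 bp and 1757659 bp outside the gene. CBFB, on chromosome 16 from 67029149 to 67101058, had no peak within 3 kb of either end, and its nearest were 60252 bp away at FBXL8 and 332824 bp away at CMTM4. The list holds called peaks only, of which the smallest had 8 fragments at the summit and the lowest fold was 2.23. The ChIP signal at the RUNX2 promoters and at CBFB was therefore not called, which does not set it at 0.

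**Figure D3:**
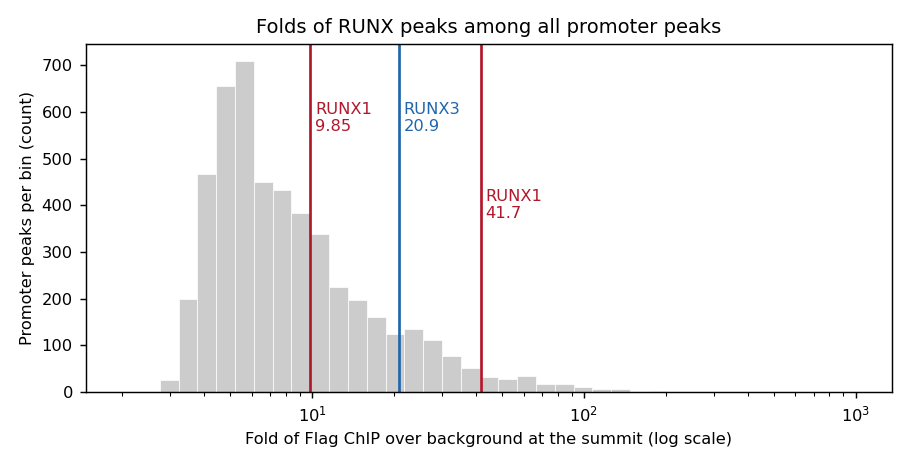
Distribution of the deposited fold over all 4905 promoter peaks (log axis, count per bin), with vertical lines at the 3 peaks assigned to RUNX1 (9.85 and 41.7) and RUNX3 (20.9). The higher RUNX1 peak lies far in the upper tail and the lower one above the median of 6.98.

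By fold, the RUNX1 P2 peak ranked 157 and the RUNX3 P2 peak 567 of 4905 promoter peaks, those within 3 kb of an annotated start. Thus 96.8% of promoter peaks had a lower fold than RUNX1 P2, 88.4% a lower fold than RUNX3 P2, and 67.8% a lower fold than the second RUNX1 peak, which ranked 1578. The P2 peaks were also wide. Of promoter peaks, 95.2% were narrower than that of RUNX1 and 93.0% narrower than that of RUNX3, against a median width of 573 bp. The second RUNX1 peak was wider than 60.0% of them. In fold the neighbours of the RUNX1 P2 peak were SNRK, a kinase gene, just above at 42.2 and LOC101927322 just below at 41.7. The background at the RUNX3 summit, 1.97, was close to the median of 1.99 over all peaks. At both RUNX1 summits it was lower, 1.64, where the lowest over all peaks was 1.47. For the same number of fragments a lower background gives a higher fold.

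A promoter peak was listed for 2 of the 4 members, against 20.3% of all 19974 protein-coding genes (chromosomes 1 to 22, and X). Because the genes were chosen with these peaks known, nothing is read from that comparison. Peaks at 2 or more annotated starts, as in RUNX1, were listed for 369 genes, 1.85% of protein-coding genes, and RUNX1 ranked 21 among them by highest fold. The highest were ZFP64 itself (highest fold 324, next 8.44), PRPSAP1 (135 and 5.54), CELSR2 (115 and 5.63), BAHCC1 (114 and 27.3) and VSIG10 (93.4 and 4.20). Their marked starts lay 4265 to 86135 bp apart, against 1507 bp in RUNX1. Among the 194 genes whose marked starts lay within 2000 bp, RUNX1 ranked 4 by highest fold. The 2000 bp limit was chosen with earlier results of these data known, so this rank is a description only.

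Starts far apart, as in the RUNX genes, could be compared across the genome. Of 1373 protein-coding genes whose outermost RefSeq starts lie at least 10 kb apart, 97 (7.06%, exact binomial 95% interval 5.77 to 8.55) had a peak within 1 kb of the downstream start only, and RUNX3 was among them. The upstream start alone had a peak in 272 (19.8%, 17.7 to 22.0), both had one in 32 (2.33%, 1.60 to 3.27), and neither in 972 (70.8%, 68.3 to 73.2), RUNX2 among these. RUNX1 has 1 window in the RefSeq table and was not counted here. In the 97 genes the median share of G and C was 73.0% in the downstream window and 59.3% in the upstream one. In the 272 genes it was 71.3% in the upstream window and 48.5% in the downstream one.

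Base composition moved with the peaks across promoters. Among all 34961 RefSeq windows on these chromosomes, 10.4% were overlapped by a peak. The share was 0.932% (0.717 to 1.19) of windows with 40 to 50% G and C, 12.1% (11.4 to 12.8) of those with 60 to 70%, and 28.4% (27.3 to 29.5) of those with 70 to 80%. Windows of neighbouring starts overlap, so they are not independent. RUNX1 P2 had 72.0% G and C with 40 CpG dinucleotides, and RUNX3 P2 had 76.0% with 38. RUNX3 P1 had 66.3% with 15 CpG, and RUNX2 P1 had 42.7% with 2. RUNX2 P2, without a peak, had the same 76.0% as RUNX3 P2, and 39 CpG. The RUNX windows with a peak were thus GC-rich, but so was one without. The part of base composition in the presence of peaks was not tested.

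**Figure D4:**
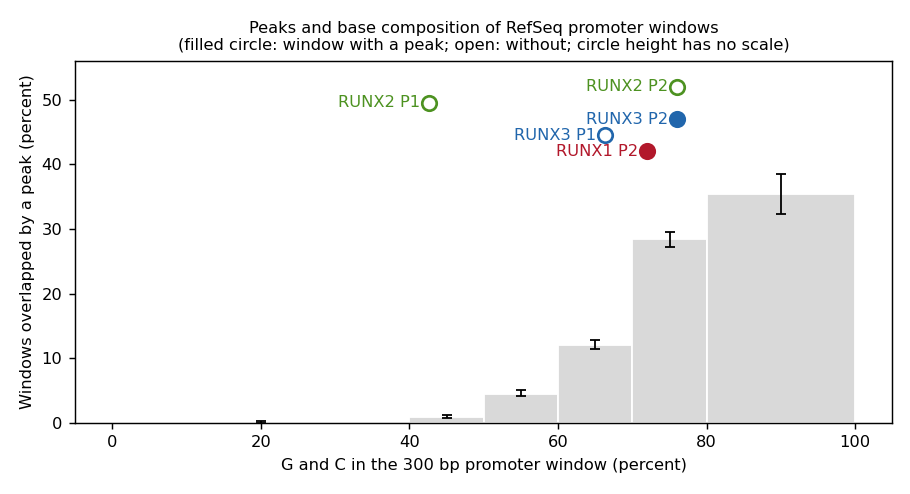
Percent of RefSeq promoter windows overlapped by a peak (bars, with exact binomial 95% intervals) against the percent of G and C in the window; circles above the bars mark the RUNX windows, filled where a peak was present. RUNX2 P2 is open at the same 76.0% at which RUNX3 P2 is filled.

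The RUNX hexamer and the peaks fell in different RUNX windows. The P2 windows of RUNX1, RUNX3 and RUNX2 held no hexamer, while RUNX3 P1 held 2 and RUNX2 P1 held 4. Over all windows 13.1% held at least 1 hexamer, 6.75% of those with a peak and 13.8% of those without. Peaks were more frequent in GC-rich windows, and the part of base composition in these shares was not tested. In RUNX3 P1 the pair began 131 and 123 bp upstream of the start. In RUNX2 P1 the 4 began 191 and 87 bp upstream and at transcript bases 17 and 25. In both P1 windows a pair stood on one strand with 2 bases between the copies, as the capitals above show. Only 4 of the 34961 windows (0.0114%) held such a pair, those of RUNX2, RUNX3, the olfactory receptor gene OR52N2 and LOC105369321. Of these, 0 of the 4 had a peak, against 10.4% of all windows, and 4 windows are too few to read anything from that. The pair was noticed by reading the windows and was counted afterwards. A match of letters does not show that a RUNX protein binds there.

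The CCAAT box was found in both P2 windows that had a peak. RUNX1 P2 held 2, beginning 148 and 89 bp upstream of the start, and RUNX3 P2 held 1, 82 bp upstream. RUNX3 P1 held 1, 212 bp upstream, and neither RUNX2 window held any. CCAAT was present in 34.6% of all windows and in 24.1% of those with a peak. The GC box (GGGCGG or CCGCCC, which can overlap itself in runs of C and G) was counted 3 times in RUNX1 P2, 4 times in RUNX3 P2, and once each in RUNX3 P1 and RUNX2 P2. It was present in 79.9% of windows with a peak and 41.0% of those without, and here too the part of base composition was not tested. The TATA box (TATAAA or TTTATA) was in none of the 5 RUNX windows, against 11.5% of all windows.

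The smaller deposited tables kept the RUNX peaks in unequal ways. All 3 assigned peaks were in the table of promoter peaks with a fold above 5, which holds 3708 peaks, against 4905 promoter peaks in the full list. Their folds pass that cut, so this adds nothing to the folds given above. An unlabelled column of 85 genes, beside a second unlabelled column of 3401, held RUNX1 but not RUNX3. RUNX1 ranked 9 of the 85 by highest promoter fold. In number the 85 are 2.50% of the 3401. How either column was drawn, and how they relate, is not stated in the labels or tables.

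Proteins that work with RUNX factors were listed by role. The cofactor list holds corepressors, coactivators and enzymes that modify RUNX proteins. A promoter peak was listed for 11 of its 30 members (36.7%, exact binomial 95% interval 19.9 to 56.1), and their median highest fold was 10.3, against 7.39 over all 4049 protein-coding genes with a promoter peak. The highest were KMT2A, a histone methyltransferase (755), SMURF2, a ubiquitin ligase (20.1), the Hippo pathway coactivator YAP1 (18.5), the Groucho-type corepressor TLE3 (14.7, with 3 promoter peaks) and the ubiquitin ligase WWP1 (12.6).

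DNA-binding factors that act beside RUNX proteins made up the partner list, in which 10 of 30 had a promoter peak (33.3%, 17.3 to 52.8; median highest fold 9.63). SMAD1, an effector of bone morphogenetic protein signals, had the highest fold, 58.7, above that of RUNX1. FOS, a subunit of AP-1, had 19.4, the ETS factor ELF4 had 18.6, the liver and myeloid factor CEBPA had 11.0 and the B cell factor EBF1 had 10.6. Genes known as RUNX targets in blood, bone or other tissues had a promoter peak in 5 of 30 cases (16.7%, 5.64 to 34.7; median highest fold 9.72). They were the cell cycle inhibitor CDKN1A (15.8), the apoptosis gene BCL2L11 (10.2), the hedgehog ligand IHH (9.72), the angiogenic factor VEGFA (4.67) and the integrin gene ITGAE (4.54). The target share lies below the 20.3% over all protein-coding genes and the other shares above it, but that background lies inside the target and partner intervals and just inside that of the cofactors. With a −log10 q of 10 or more required, 7 cofactors, 9 partner factors and 3 target genes had a promoter peak, against 11.6% of protein-coding genes. With a fold of 5 or more required, the counts were 9, 10 and 3, against 15.8%. There the partner count was unchanged, and its interval of 17.3 to 52.8 lies above that background. Intervals for the counts that changed were not computed. The lists were chosen with earlier results of these data known, and no set test was run. Nothing about the lists is therefore read from where an interval lies against its background. KMT2A and SMAD1 were the only members of the 3 lists with a fold above that of RUNX1 P2.

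**Figure D5:**
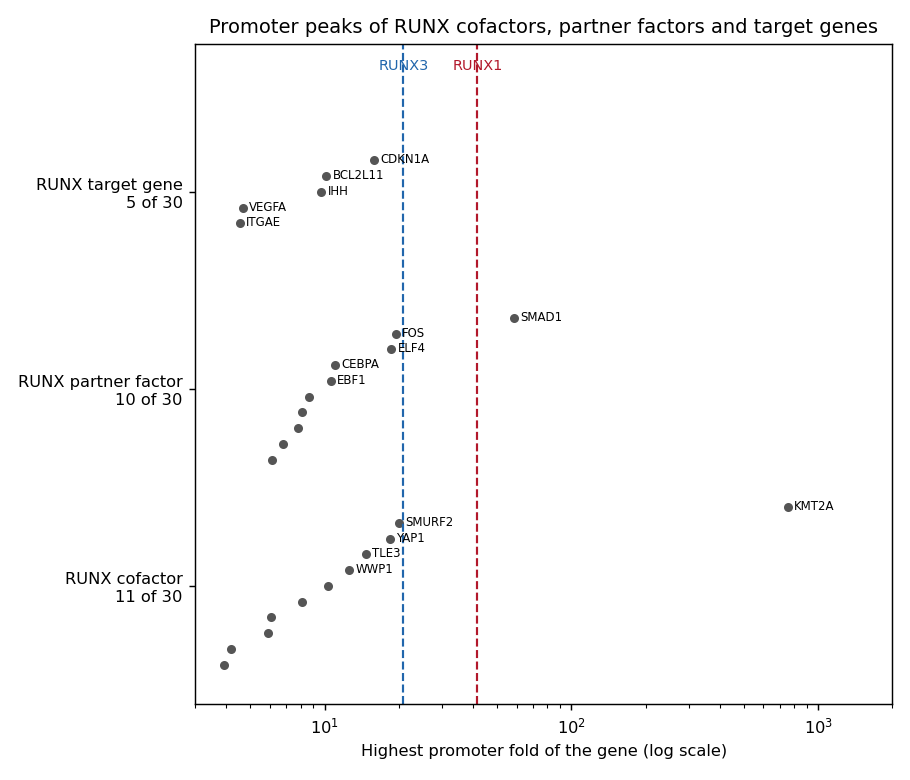
Highest promoter fold (log axis) of each cofactor, partner factor and target gene with a promoter peak, 11, 10 and 5 of 30 in each list; dashed lines mark the RUNX3 (20.9) and RUNX1 (41.7) P2 peaks, and the 5 highest genes of each list are labelled. KMT2A (755) and SMAD1 (58.7) lie to the right of RUNX1.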

How the data were processed

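One Flag ChIP library and 1 input library were compared by the authors, who deposited narrow peaks in hg38. The submitters' processing notes list, without roles, MACS2 2.2.7.1, deepTools 3.5.0, SAMtools and Bowtie2 2.4.1. The fold (a ratio), p-value and q-value of each peak, its class and nearest gene are as the authors deposited them; no source used here names the annotation tool. Library totals were not used here. Fragments at the summit were recovered from fold and p-value under the Poisson tail, adding a pseudocount of 1. Of the 6302 peaks whose p-value is not 0, 6293 (99.9%) matched whole fragments to 0.001 in −log10 p. On made-up peaks, 299 of 300 were recovered. The smallest count limits what could be called. Positions, starts and promoter windows came from RefSeq tables of GRCh38.p14, matched by symbol or gene identifier. All 30 genes of each of the 3 lists were matched.

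Members, lists and rules were chosen with earlier results of these data known. Named were all member peaks, up to 5 genes per list by highest promoter fold, up to 5 genes with peaks at as many starts as RUNX1, the neighbours of RUNX1 in fold, and the nearest other start. Genes outside this rule are marked or belong to the members' own surroundings. With 1 library of each kind no test was run, and intervals are exact at 95%. Alternatives were a fold of at least 5, a −log10 q of at least 10, a promoter window of 1 kb, any assigned peak, and other rankings. Python 3.11.15, pandas 2.3.3, SciPy 1.17.1 and matplotlib 3.10.9 were used.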

Additional observations from a re-analysis of the deposited data

How the results depend on the processing

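Of 34 alternatives over 10 results, 26 left a count within 1.5 times or a share within its interval, and 8 moved the value. Fewer peaks pass stricter thresholds by construction, and ranking among all peaks changes the set compared. For the ranking by q-value the cause was not tested. RUNX1, RUNX3 and their 3 assigned peaks were kept at both stricter thresholds, and 2 of the 4 members had a promoter peak in each alternative run. Over all protein-coding genes the share was 15.8% at a fold of at least 5 and 11.6% at a −log10 q of at least 10. Because the members were chosen with these peaks known, nothing is read from that comparison. Counting peaks that overlap the gene body, an alternative added after seeing the data, gave 1 for RUNX2 and 2 for RUNX3. The added peaks were those assigned to SUPT3H and MIR6731, described above. The share of promoter peaks below RUNX1 P2 was 95.9% ranked by q-value and 97.4% among all peaks, and below RUNX3 P2 it was 90.5% among all peaks. Requiring −log10 q of 10 or more left 7 cofactors and 3 target genes with a promoter peak, and requiring a fold of 5 or more left 3 target genes. RUNX2 and CBFB have no promoter peak and so no rank to vary. No paired analysis was possible because only 1 library stands in each group.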

Other observations

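Some genes of the RUNX lists had their peaks away from promoters. Without a promoter peak, the coactivator gene CREBBP had a peak elsewhere with a fold of 8.99 and the cofactor gene CBFA2T3 had 4.72. Likewise TCF12, an E protein gene, had 9.83 and the B cell factor PAX5 had 6.77. Of the target genes, the perforin gene PRF1 had 8.42 and the neurotrophin receptor gene NTRK3 had 5.13. The share of all genes with peaks only outside promoters was not computed. VEGFA had 4 peaks, with a fold of 8.14 outside promoters and 4.67 at them. The corepressor gene TLE3 and the blood factor gene MYB had 3 promoter peaks each. Assignment is to the nearest start, and these genes were picked for naming after their values were seen.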
